A study of Mus musculus with 9 samples.

Results

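Versican (Vcan), serglycin (Srgn) and the hyaluronan receptor CD44 (Cd44) were followed in the CD11b+ cells of mouse bone marrow, by RNA sequencing of total RNA. The 3 genes were chosen by symbol, out of 23337 genes in the deposited counts, and all 3 were among the 12553 genes with enough counts to be tested. The 9 libraries came from 9 male C57BL/6 mice aged 3 to 6 weeks, 3 in each of 3 groups. PBS mice received 100 µl of phosphate-buffered saline by tail vein on days 1, 3 and 5. EnzR EV mice received 10 µg of extracellular vesicle (EV) protein in 100 µl on the same days, from enzalutamide-resistant CWR-R1 cells, a human prostate cancer line (EnzR exosome in the labels). EnzR EV + HDL NP mice received the same vesicles and also 100 µl of high-density lipoprotein-like nanoparticles on days 0, 2 and 4 (EnzR exosome + HDL NP in the labels). HDL NPs carry apolipoprotein A-1 and phospholipid on a gold core. Marrow was taken from femurs and tibias, red cells were lysed, and cells were selected with beads on CD11b, the integrin subunit of neutrophils, monocytes and other myeloid cells. No group received HDL NPs alone or vesicles from non-malignant cells, so among these libraries HDL NPs were seen only on top of EnzR EVs, and EnzR EVs cannot be told apart from injected vesicles in general.

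The 3 genes encode parts of a single system of sugar chains and their receptors. Versican is a large secreted proteoglycan that carries chondroitin sulphate chains and binds hyaluronan, an unsulphated sugar polymer of the matrix, through its amino-terminal domain, and in blood-forming tissue it is known as a product of monocytes. Serglycin is the small proteoglycan of secretory granules, whose chains hold proteases and other basic proteins in storage in neutrophils, mast cells and lymphocytes. CD44 is the main cell-surface receptor for hyaluronan on leukocytes, and it also binds osteopontin and some chondroitin sulphate proteoglycans, serglycin among them.

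The coding sequence of Srgn is shown first, since it holds the feature that makes serglycin a proteoglycan. Chains attach at serines that are followed by glycine. In transcript Srgn-201 (GENCODE M21), coding bases 250 to 345 read as follows, with the run of serine-glycine codon pairs in capitals.

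Srgn repeat: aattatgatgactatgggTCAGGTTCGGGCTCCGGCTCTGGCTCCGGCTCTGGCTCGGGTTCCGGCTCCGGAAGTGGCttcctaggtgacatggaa

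That stretch held 10 serine-glycine codon pairs without a break, all of those in the 152 codons of Srgn, or 6.58 pairs per 100 codons. The longest coding sequence of Vcan (Vcan-203) held 30 such pairs in 3354 codons, or 0.894 per 100, with no run longer than 2. The longest of Cd44 (Cd44-201) held 6 pairs in 780 codons, or 0.769 per 100. The chondroitin sulphate carriers differ in how the pairs are placed, in a block in Srgn and scattered in Vcan. A serine-glycine codon pair marks a possible attachment point and is not a record of a chain.

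All 3 genes lie on the minus strand of GRCm38 and code for protein. Vcan (ENSMUSG00000021614.16) spans chr13:89655312-89742509, Srgn (ENSMUSG00000020077.14) spans chr10:62493833-62527451, and Cd44 (ENSMUSG00000005087.17) spans chr2:102811141-102901665. Their merged exons measure 13406 bases in Vcan, 1753 bases in Srgn and 5654 bases in Cd44. Vcan has 5 basic transcripts in GENCODE M21, whose coding sequences run from 368 to 3354 codons, and Cd44 has 8, from 365 to 780 codons. The counts were made per gene, so that the splice forms of versican and CD44 were summed in every value below. The promoter windows, 250 bases before to 50 bases after each RefSeq start on GRCm38.p6, are printed to set the letters around the 3 starts side by side. The windows are chr13:89742463-89742762 for Vcan, chr10:62527396-62527695 for Srgn (the first of 2 entries for this gene) and chr2:102901616-102901915 for Cd44, each read 5′ to 3′ on the minus strand, with matches to the motifs named below in capitals.

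Vcan promoter: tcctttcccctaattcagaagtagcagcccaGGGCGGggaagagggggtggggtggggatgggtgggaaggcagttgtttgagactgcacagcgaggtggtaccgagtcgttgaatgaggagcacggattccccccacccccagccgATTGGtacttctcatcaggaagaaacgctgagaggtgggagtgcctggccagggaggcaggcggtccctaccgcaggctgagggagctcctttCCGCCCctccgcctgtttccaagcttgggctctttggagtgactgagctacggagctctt

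Srgn promoter: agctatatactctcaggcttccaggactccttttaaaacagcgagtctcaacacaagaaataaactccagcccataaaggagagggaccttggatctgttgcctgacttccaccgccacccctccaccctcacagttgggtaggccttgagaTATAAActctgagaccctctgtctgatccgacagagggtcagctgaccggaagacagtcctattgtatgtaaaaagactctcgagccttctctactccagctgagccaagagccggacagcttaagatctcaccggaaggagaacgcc

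Cd44 promoter: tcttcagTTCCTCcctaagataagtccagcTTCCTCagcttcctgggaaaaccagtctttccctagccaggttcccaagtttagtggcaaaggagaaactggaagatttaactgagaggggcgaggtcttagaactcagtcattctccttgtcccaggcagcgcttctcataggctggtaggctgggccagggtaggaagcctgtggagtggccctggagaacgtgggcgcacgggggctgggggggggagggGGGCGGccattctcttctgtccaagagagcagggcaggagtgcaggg

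Both strands were searched for 9 motifs. GGGCGG, a GC box, was found 2 times in the Vcan window and 1 time in that of Cd44, and 35.66% of all 32851 promoter windows hold it. CCAAT was found 1 time in Vcan (37.41% of windows), TATAAA 1 time in Srgn (13.62%), and GAGGAA, the core bound by the myeloid factor PU.1, 2 times in Cd44 (28.28%). TGANTCA, an AP-1 element (7.808%), CTTTGAT, a TCF/LEF element (3.729%), TGACGTCA, a cAMP response element (1.79%), an interferon-stimulated response element (3.443%) and an NF-kB element (1.629%) were found in none of the 3. Each match is a description of letters and not a bound site, and a motif that was not found is missing from these 300 bases only.

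The libraries held 2575776 to 18110561 counts, and levels below are counts scaled to library size (CPM). The ribosomal transcript Rn45s, which the depletion should remove, took 42.7% of the counts in EnzR EVs replicate 1, 20.3% in PBS replicate 1 and 14.2% in EnzR EVs replicate 3, against 0.657% to 2.87% in the other 6. EnzR EVs replicate 1 was also the smallest library and stood apart, with a highest correlation with any other library of 0.919. No HDL NP library was above 10%, so this difference is uneven between the groups, and the fits of Vcan, Srgn, Cd44 and the gene lists were repeated without these 3 libraries, for the lists as a choice made after the data were seen. That leaves 2 PBS mice, 1 EnzR EV mouse and 3 EnzR EV + HDL NP mice, so that each fit of EnzR EVs then rests on EnzR EVs replicate 2. In that repeat 5.59% of all genes were at an unadjusted p under 0.05 for EnzR EVs against PBS, 4.72% for EnzR EVs + HDL NPs against PBS and 4.23% between the EV-injected groups, and 50.8%, 50.2% and 49.2% of all genes lay lower. Itgam and Itgb2, which encode the chains of the CD11b/CD18 integrin, summed to 2759 to 3607 CPM, so that the defining markers of the label were present. Neutrophil genes were abundant, at 28929 to 143010 CPM over 9 markers, and the 10 classical monocyte markers summed to 2311 to 4354 CPM. Of the lists for other cells, the 11 stromal and endothelial markers summed to 20.1 to 85.8 CPM, the platelet markers to 33.6 to 132 CPM and the T and NK cell markers to 33.6 to 88.9 CPM. Those of eosinophils, basophils and mast cells were higher, at 1297 to 3286 CPM over 8 markers.

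Levels are given in CPM of the library size scaled by TMM (trimmed mean of M values), and, where genes are compared with each other, in CPM per kilobase of merged exon. The 3 genes stood at different heights. Per kilobase, Srgn was the highest at 262 in PBS mice, 246 in EnzR EV mice and 208 in EnzR EV + HDL NP mice, at rank 122, 138 and 157 of 11347 genes with a length. Cd44 followed at 170.2, 146 and 173 per kilobase, at rank 209, 253 and 193. Vcan was lower at 4.74, 10.8 and 11.7 per kilobase, at rank 6459, 4289 and 4021. Srgn exceeded Cd44 by 1.14 to 2.59 times per kilobase, and Cd44 exceeded Vcan by 10.3 to 46.1 times, in each of the 9 libraries. The order was the same when the longest transcript was used for length.

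**Figure D1:**
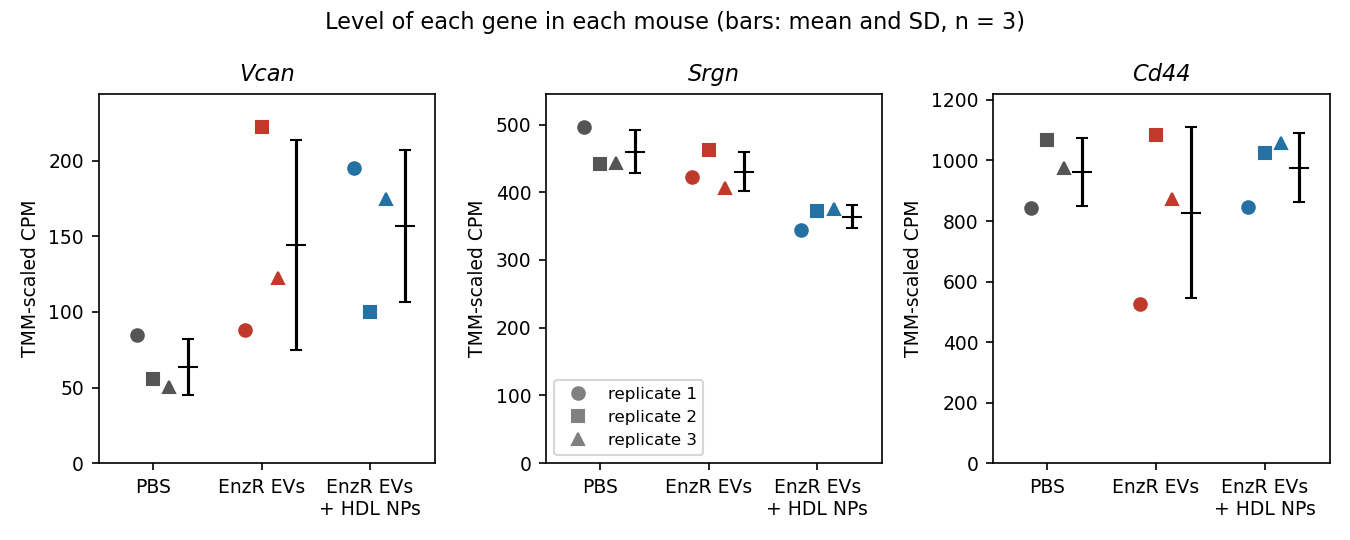
Level of Vcan, Srgn and Cd44 (y axis, TMM-scaled CPM, from 0) in each of the 9 mice by group; symbols mark the replicate number, and the black bars the group mean and SD (n = 3). The 3 PBS values of Vcan lie between 50.2 and 84.7, below the 6 values of both groups given EnzR EVs, while Cd44 overlaps between all groups.

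On the TMM scale, Vcan was low in all PBS mice and higher in all mice given EnzR EVs. Its values were 84.7, 55.7 and 50.2 CPM in PBS replicates 1, 2 and 3, from 481, 968 and 877 counts. In EnzR EV mice they were 88.3, 222 and 123 CPM, from 161, 4174 and 1038 counts. In EnzR EV + HDL NP mice they were 195, 99.8 and 175 CPM, from 3467, 1674 and 2501 counts. The lowest EnzR EV mouse lay just above the highest PBS mouse. By library size only that order turned, with 161 of 2575776 counts in EnzR EVs replicate 1 and 481 of 6006087 counts in PBS replicate 1. The spread within the EnzR EV group was wide, with a coefficient of variation of 48.1% against 29.2% in PBS and 32.1% in EnzR EVs + HDL NPs. The group means were 63.5 ± 18.5, 144 ± 69.5 and 157 ± 50.2 CPM (SD, n = 3).

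Against PBS, the fitted level of Vcan in EnzR EV mice was 2.30-fold higher (95% interval 1.32 to 4.01), a log2 fold change of 1.20 ± 0.362 (SE). It was rank 53 of 12553 genes by p in edgeR's quasi-likelihood test, with unadjusted p = 0.00723 and Benjamini-Hochberg adjusted p = 0.928, so that the difference did not pass the threshold of 0.05. DESeq2, the tool of the study's own methods, gave an adjusted p of 0.622. On the TMM scale the 3 values of each group did not overlap, a pattern seen in this direction for 3.43% of all genes tested. An exact permutation test on that scale gave p = 0.10 (two-sided), the smallest that 3 mice against 3 can give. Scaled by library size only, the groups overlapped, with EnzR EVs replicate 1 below PBS replicate 1. edgeR called 0 genes in this comparison (0% of those tested), with 436 genes (3.47%) at an unadjusted p under 0.05, and DESeq2 called 8 (0.0567%). In bulk RNA, more cells that express Vcan and more Vcan RNA per cell cannot be told apart. Vcan was also a gene singled out by the study from these same libraries, so its rank here is not independent evidence.

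The difference depended on which mice were compared. In the 3 libraries with Rn45s above 10%, Vcan was 84.7 CPM in the PBS mouse and 88.3 and 123 CPM in the EnzR EV mice. In the other 6 it was 55.7 and 50.2 CPM in PBS mice, 222 CPM in the only EnzR EV mouse and 99.8 to 195 CPM in EnzR EV + HDL NP mice. The log2 fold change of EnzR EVs against PBS was 0.77 (edgeR adjusted p = 0.284) without EnzR EVs replicate 2 and 2.07 (edgeR adjusted p = 0.0585) without the 3 libraries high in Rn45s, which leaves a single EnzR EV mouse and assumes that it varied like the others. The part of Rn45s in the difference was not tested.

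Vcan was likewise higher in EnzR EV + HDL NP mice than in PBS mice, by 2.47-fold (95% interval 1.42 to 4.31). The log2 fold change was 1.31 ± 0.362, at rank 24 by p, with unadjusted p = 0.00437 and adjusted p = 1.00 in edgeR, and an adjusted p of 0.335 in DESeq2. All 3 values exceeded all PBS values, as they did for 6.96% of genes tested (exact permutation p = 0.10, two-sided, the smallest possible). edgeR called 0 genes (0%), with 268 (2.13%) at an unadjusted p under 0.05, and DESeq2 called 7 (0.0604%). This comparison uses the same PBS mice as the comparison above, so that a low value in them enters both.

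With all 6 mice that received EnzR EVs as a single group, a contrast formed with the values of Vcan known, Vcan averaged 150 ± 54.6 CPM (SD, n = 6) against 63.5 ± 18.5 CPM (SD, n = 3) in PBS mice. The log2 fold change was 1.25 ± 0.327 in edgeR, at rank 23 by p, with unadjusted p = 0.00301 and adjusted p = 1.00, and the DESeq2 adjusted p was 0.0980. On the TMM scale all 6 values lay above all 3 PBS values, which held for 0.701% of genes tested. The exact permutation test on that scale gave p = 0.0238 (two-sided), the lowest value open to 6 mice against 3. As the contrast was formed with this separation known, the outcome of that test was fixed and is not independent evidence. By library size only, EnzR EVs replicate 1 lay below PBS replicate 1, so that this separation depends on the scaling. When the 3 libraries high in Rn45s were left out, the log2 fold change was 1.82 with an edgeR adjusted p of 0.0307. edgeR called 0 genes on all 9 libraries (0%), with 273 (2.17%) at an unadjusted p under 0.05, and DESeq2 called 14 (0.11%).

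HDL NPs were not followed by a detectable difference in Vcan between the EV-injected groups. EnzR EV + HDL NP mice against EnzR EV mice gave a log2 fold change of 0.10 ± 0.355 in edgeR (95% interval -0.68 to 0.89, unadjusted p = 0.775, adjusted p = 0.901), and the groups overlapped. The interval spans a fold from 0.623 to 1.85, so neither a moderate decrease nor a moderate increase is outside it. The sign turned to -0.51 without the 3 libraries high in Rn45s. edgeR called 0 of all genes in this comparison (0%), with 1325 (10.6%) at an unadjusted p under 0.05, and DESeq2 called 1 (0.00532%).

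**Figure D2:**
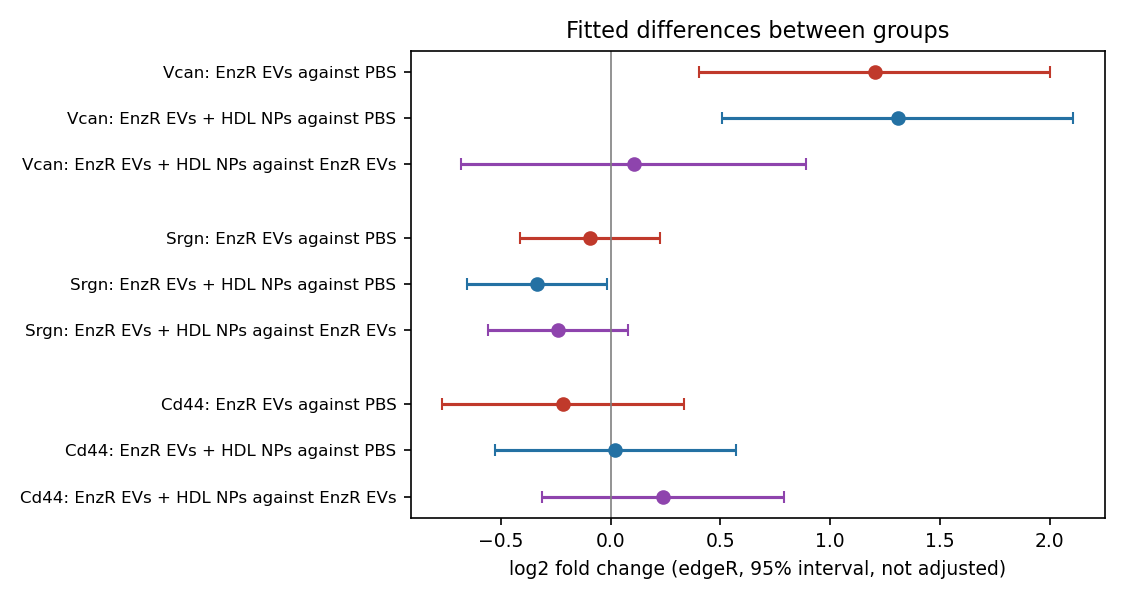
Fitted log2 fold changes from edgeR (x axis, 0 marked by the grey line) of Vcan, Srgn and Cd44 in each comparison; points are estimates and bars their 95% intervals, not adjusted for the number of genes. Vcan lies above 0 in both comparisons with PBS (1.20 and 1.31) and at 0.10 between the EV-injected groups, and all 3 intervals of Cd44 include 0.

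On the TMM scale, Srgn differed less between the groups but was the steadiest of the 3 genes within them. Its values were 496, 441 and 443 CPM in PBS mice, 422, 462 and 407 CPM in EnzR EV mice, and 344, 373 and 375 CPM in EnzR EV + HDL NP mice. On that scale all 3 mice that received HDL NPs lay below all 6 others, while PBS and EnzR EV mice overlapped. By library size only, the order turned for EnzR EVs replicate 1, with 769 of 2575776 counts. EnzR EVs + HDL NPs replicate 2 had 6251 of 16611934 counts. The share of all genes that lay below both other groups was not counted. The means were 460.0 ± 31.3, 430.4 ± 28.7 and 364 ± 17.4 CPM (SD, n = 3), with coefficients of variation of 6.81%, 6.67% and 4.79%.

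For Srgn, EnzR EV + HDL NP mice against PBS mice gave a log2 fold change of -0.34 ± 0.144 in edgeR (95% interval -0.66 to -0.02), at rank 184 by p, with unadjusted p = 0.0401 and adjusted p = 1.00. The groups did not overlap in this direction for 6.21% of genes (exact permutation p = 0.10, two-sided, the smallest possible). Against EnzR EV mice the difference was -0.24 ± 0.144 (edgeR unadjusted p = 0.123, adjusted p = 0.490), without overlap on the TMM scale only, as for 8.58% of genes in that direction (exact permutation p = 0.10). Scaled by library size only, it was -0.010 (edgeR unadjusted p = 0.964), a scaling that moved the median of all genes by 0.21 in this comparison. EnzR EV mice against PBS mice gave -0.10 ± 0.144 (edgeR unadjusted p = 0.523, adjusted p = 0.934), which turned to 0.070 without the 3 libraries high in Rn45s. None of these differences passed the adjusted threshold.

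Cd44 showed no difference larger than the spread between mice. It measured 843, 1068 and 976 CPM in PBS mice, 525, 1084 and 874 CPM in EnzR EV mice, and 845, 1026 and 1059 CPM in EnzR EV + HDL NP mice. The means were 963 ± 113, 828 ± 283 and 977 ± 115 CPM (SD, n = 3). The low value belonged to EnzR EVs replicate 1, the library with the highest share of Rn45s, and it set the spread of its group, with a coefficient of variation of 34.2% against 11.7% and 11.8% in the others. All pairs of groups overlapped. The log2 fold changes in edgeR were -0.22 ± 0.249 for EnzR EVs against PBS (adjusted p = 0.928), 0.02 ± 0.248 for EnzR EVs + HDL NPs against PBS (adjusted p = 1.00) and 0.24 ± 0.249 between the EV-injected groups (adjusted p = 0.663). Without the 3 libraries high in Rn45s these became 0.089, -0.065 and -0.15, so that the sign of Cd44 is not set in any of the 3.

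The balance of the 3 genes within a library follows from these levels, and it does not depend on the scaling between libraries. Per kilobase, Srgn exceeded Vcan by 44.8 to 67.5 times in PBS mice, by 15.9 to 36.5 times in EnzR EV mice and by 13.5 to 28.6 times in EnzR EV + HDL NP mice. The PBS range lay above both others. Cd44 exceeded Vcan by 23.6 to 46.1 times in PBS mice, 11.6 to 16.9 times in EnzR EV mice and 10.3 to 24.4 times in EnzR EV + HDL NP mice, where only EnzR EVs + HDL NPs replicate 2 reached into the PBS range. These ratios rest on the same values of Vcan and add no separate test. Across the 9 libraries, which share the 3 groups, log2 CPM of Vcan had a Pearson r of -0.428 with Srgn and 0.114 with Cd44, and Srgn had -0.0130 with Cd44. After the group means were removed, r was positive for all 3 pairs, at 0.479 for Vcan with Srgn, 0.413 for Vcan with Cd44 and 0.255 for Srgn with Cd44, so that the sign of both pairs with Srgn differed from that over all 9.

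Vcan is a gene of monocytes, and the monocyte markers were therefore set beside it. The 10 markers, all detected, summed to 3694 to 4354 CPM in PBS mice, 2311 to 3777 CPM in EnzR EV mice and 3186 to 4334 CPM in EnzR EV + HDL NP mice. In EnzR EV mice 9 of the 10 lay below their PBS level, with a median log2 fold change of -0.31, while the median of all genes was -0.03, and none passed the adjusted threshold. Ly6c2, the surface marker of classical monocytes, averaged 392.3 CPM in PBS and 314 CPM in EnzR EV mice, and Ccr2, the receptor that draws monocytes out of marrow, 562 and 434 CPM. The sums did not follow the share of Rn45s throughout. They were lowest in EnzR EVs replicates 1 and 3 (2311 and 2994 CPM), both high in Rn45s, and in EnzR EVs + HDL NPs replicate 3 (3186 CPM, with 2.87% Rn45s), and highest in PBS replicate 1 (4354 CPM, with 20.3% Rn45s). EnzR EVs replicate 2 had 3777 CPM, beside 3834 and 3694 CPM in PBS replicates 2 and 3. In EnzR EVs replicate 2 against the PBS mice low in Rn45s, 6 of the 10 markers lay higher and 4 lower, with a median of 0.082. Per 100 counts of these markers there were 1.36 to 1.94 counts of Vcan in PBS mice, 3.82 to 5.88 in EnzR EV mice and 2.74 to 5.48 in EnzR EV + HDL NP mice, with no overlap between PBS and either other group. The same ratio was formed with each of the 11 cell type lists, and EnzR EV mice lay above PBS mice without overlap for 3 of them (monocyte, neutrophil and B lineage), and EnzR EV + HDL NP mice for 6. All 11 ratios rest on the same values of Vcan and add no separate test. The share of all genes without overlap on these bases was not counted. With the CD11b genes as the base the ranges overlapped, at 1.58 to 2.95 in PBS mice, 2.50 to 6.59 in EnzR EV mice and 2.77 to 7.07 in EnzR EV + HDL NP mice. Neutrophil markers, 1 of those bases, lay below PBS for 9 of 9 genes in EnzR EV mice (median log2 fold change -0.24) and above EnzR EV mice for 9 of 9 in EnzR EV + HDL NP mice (median 0.27). Their lowest sum, 28929 CPM in EnzR EVs replicate 1 against 53015 to 111266 CPM in PBS mice, went with the highest ratio of Vcan to them, 0.305 counts per 100. In EnzR EVs replicate 2, compared with the PBS mice low in Rn45s, 7 of 9 lay higher (median 0.13). Markers of the B lineage, also a base, were themselves below PBS for 7 of 7 tested genes in EnzR EV mice (median log2 fold change -0.98) and for 7 of 7 in EnzR EV + HDL NP mice (median -0.69), at low sums of 16.3 to 24.8 CPM in PBS, 9.37 to 21.9 CPM in EnzR EVs and 7.75 to 22.1 CPM in EnzR EVs + HDL NPs. With the libraries high in Rn45s left out, 7 of 7 (median -1.61) and 5 of 7 (median -0.26) lay lower. Platelet and megakaryocyte markers lay lower for 7 of 9 in EnzR EV mice (median -0.33) and 8 of 9 in EnzR EV + HDL NP mice (median -0.61), and with the libraries high in Rn45s left out for 9 of 9 in both (medians -1.84 and -0.92), 7 and 5 of them at an unadjusted p under 0.05, as for 5.59% and 4.72% of all genes in that fit. The macrophage list, which summed to 591 to 1091 CPM in PBS, 501 to 627 CPM in EnzR EVs and 569 to 736 CPM in EnzR EVs + HDL NPs, was also lower for 9 of 10 genes in EnzR EV mice (median log2 fold change -0.71), 4 of them at an unadjusted p under 0.05, where 53.5% of all genes lay lower and 3.47% had such a p. In EnzR EV + HDL NP mice 10 of 10 were lower than in PBS (median -0.49), 2 of them at an unadjusted p under 0.05, against 51.1% and 2.13% of all genes. All 10 lay below PBS in both comparisons when the libraries high in Rn45s were left out (medians -0.66 and -0.64). Of these 10, 8 then had an unadjusted p under 0.05 in EnzR EV + HDL NP mice, as did 4.72% of all genes in that fit. Stromal and endothelial cells, another known source of versican, gave 20.1 to 85.8 CPM over 11 markers in PBS, 36.0 to 80.6 CPM in EnzR EVs and 35.4 to 59.1 CPM in EnzR EVs + HDL NPs, with Dcn at 0 in 3 libraries and Bglap at 0 in 4. Of its 9 tested markers, 6 lay below PBS in EnzR EV mice (median -0.44) and 7 in EnzR EV + HDL NP mice (median -0.24), which became 9 (median -1.14) and 8 (median -0.59) without the libraries high in Rn45s. Dendritic cell markers lay below PBS for 6 of 8 genes in EnzR EV mice (median -0.72) and 7 of 8 in EnzR EV + HDL NP mice (median -0.36), and for 6 of 8 in both without the libraries high in Rn45s (medians -0.76 and -0.29). Erythroid markers lay lower for 5 of 5 (median -0.96) and 4 of 5 (median -0.42), and for 5 of 5 in both without those libraries (medians -1.31 and -0.50). Eosinophil, basophil and mast cell markers lay lower for 7 of 8 in both (medians -0.33 and -0.23), and T and NK cell markers for 5 of 7 and 6 of 7 (medians -0.38 and -0.29). The part of any cell type in the level of Vcan was not tested.

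**Figure D3:**
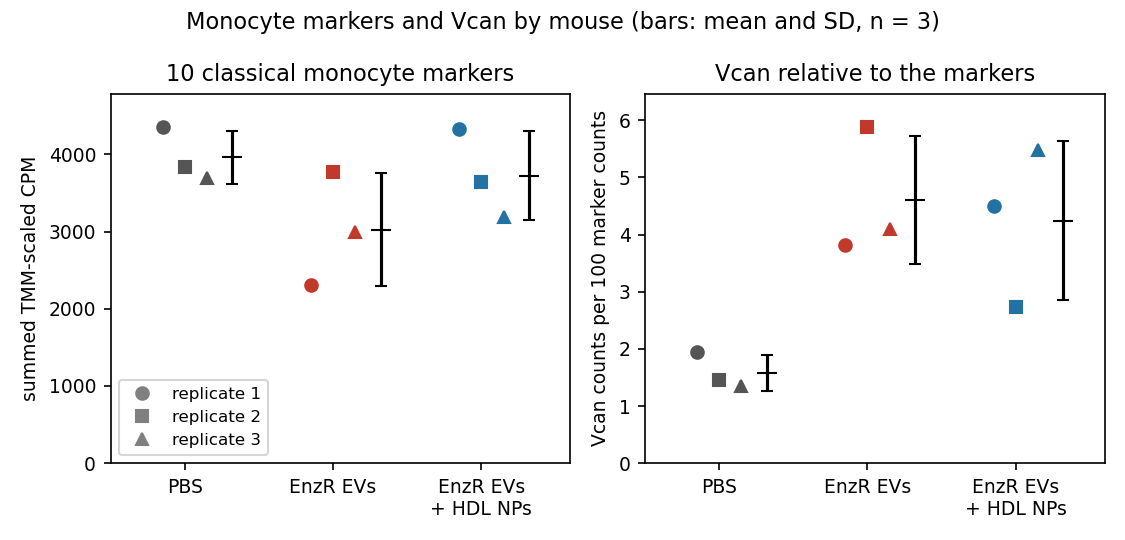
Left, summed TMM-scaled CPM (y axis, from 0) of 10 classical monocyte markers in each mouse; right, counts of Vcan per 100 counts of these markers (y axis, from 0); symbols mark the replicate number, and bars the mean and SD (n = 3). The markers overlap between groups, while Vcan per 100 marker counts is at most 1.94 in PBS mice and at least 2.74 in the others.

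The genes whose levels ran most alike with Vcan over the 9 libraries, by Pearson correlation of log2 CPM, were Il2rg (r = 0.951), which encodes the shared gamma chain of several cytokine receptors, Kntc1 (0.936), a kinetochore component, Rsad2 (0.927), an interferon-induced antiviral enzyme, Kif15 (0.920), a mitotic kinesin, and H2-M3 (0.912), a class Ib histocompatibility molecule. Without EnzR EVs replicate 1 these values were 0.976, 0.942, 0.935, 0.938 and 0.920. For Srgn the nearest were Armcx3 (0.928), Ngdn (0.890), Rpl37a (0.889), Atp13a2 (0.877) and Cog7 (0.868). For Cd44 they were Tln1 (0.994), which encodes the integrin-bound cytoskeletal protein talin, Clint1 (0.991), Rap2c (0.988), Xpr1 (0.986) and Herpud2 (0.984). The low value of Cd44 in EnzR EVs replicate 1 was shared by all 5 of its genes, and without that library r was 0.970 for Tln1 and 0.922 for Herpud2. These genes are the top of a ranking of all 12553 over 9 points, which share groups, depth and Rn45s content, and the values are descriptive.

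The enzymes and receptors around the 3 genes were described from 10 lists. Hyaluronan itself is made at the plasma membrane by the synthases. Has2, the synthase that makes long chains, measured 4.40, 5.98 and 5.44 CPM in PBS mice, 3.84, 2.71 and 1.89 CPM in EnzR EV mice, and 4.33, 4.41 and 5.52 CPM in EnzR EV + HDL NP mice. EnzR EV mice lay below both other groups, as for 4.52% of genes tested against PBS and 8.99% against EnzR EVs + HDL NPs. The log2 fold change in edgeR was -1.03 ± 0.314 against PBS (unadjusted p = 0.00766, adjusted p = 0.928) and 0.87 ± 0.312 for EnzR EVs + HDL NPs against EnzR EVs (unadjusted p = 0.0186, adjusted p = 0.461). They were -1.07 and 0.80 without the 3 libraries high in Rn45s. Has3 averaged 2.25, 2.69 and 3.09 CPM in the 3 groups, with log2 fold changes of 0.04 for EnzR EVs against PBS and 0.38 between the EV-injected groups, which were -0.84 and 1.15 without those libraries (edgeR unadjusted p = 0.0645 and 0.0140, adjusted p = 0.914 and 0.958), and Has1 was too low to test. In EnzR EV mice the fitted level of Vcan lay above PBS and that of Has2 below, and neither passed the adjusted threshold. Has2 was low, and 3 counts amount to 1.65 CPM in EnzR EVs replicate 1.

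Of the 6 hyaluronan receptors, Cd44 itself among them, 5 lay lower in EnzR EV than in PBS mice (median log2 fold change -0.23) and 4 lay higher in EnzR EV + HDL NP than in EnzR EV mice (median 0.33), against all-gene medians of -0.03 and 0.03 and shares of 53.5% lower and 52.8% higher. With the libraries high in Rn45s left out these were 4 lower (median -0.19) and 4 higher (median 0.17). Cd44 was the most abundant of them, and Hmmr, a hyaluronan-binding protein of dividing cells, came next at 70.4, 86.7 and 85.7 CPM. Stab2, a scavenger receptor of sinusoidal endothelium, averaged 15.7 CPM in PBS and 6.89 CPM in EnzR EV mice, a log2 fold change of -1.07 (edgeR unadjusted p = 0.0273, adjusted p = 0.928) and of -1.14 without the 3 libraries high in Rn45s. Of the 7 tested enzymes that degrade hyaluronan, 3 lay higher and 4 lower in EnzR EV mice. The most abundant were Hexa, a lysosomal hexosaminidase, at 165 to 201 CPM, and Cemip2, a cell-surface hyaluronidase, at 164 to 183 CPM over the group means. Hyal1, a lysosomal hyaluronidase, lay at 1.03 CPM in PBS and 0.185 CPM in EnzR EV mice, close to the 0.160 to 1.65 CPM that 3 counts amount to in a library, and its log2 fold change of -2.03 is uncertain for that reason.

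Most partners of versican in the matrix were too low to test in these cells, with 4 of 20 tested. Among them Itih5, a relative of the hyaluronan-bound heavy chains, averaged 90.1, 66.8 and 101 CPM, and Tnc, the matrix glycoprotein tenascin C, 4.61, 3.76 and 3.98 CPM. Of the 7 ADAMTS proteases and inhibitor known for versican cleavage, only Adamts5 (1.67, 2.65 and 2.65 CPM) and the inhibitor Timp3 (5.43, 2.84 and 4.42 CPM) were tested. None of these 6 genes differed at an unadjusted p under 0.05 on all 9 libraries. When the libraries high in Rn45s were left out, 1 of the 4 partners and 1 of the 2 in the protease list lay below PBS at such a p, as 5.59% and 4.72% of all genes differed in either direction, both in the single EnzR EV mouse (list medians -0.47 and -0.72) and in EnzR EV + HDL NP mice (-0.34 and -0.30).

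The enzymes that build chondroitin sulphate chains, used by both Vcan and Srgn, were broadly expressed, with 25 of 27 tested. In EnzR EV mice 15 were higher and 10 lower than in PBS (median log2 fold change 0.04). In EnzR EV + HDL NP mice 3 were higher and 22 lower than in PBS (median -0.23), and 5 were higher and 20 lower than in EnzR EV mice (median -0.26), against all-gene medians of -0.01 and 0.03. With the 3 libraries high in Rn45s left out, 4 were higher and 21 lower than in PBS (median -0.13), while 11 were higher and 14 lower than in the single EnzR EV mouse (median -0.047). The most abundant were Csgalnact2, which begins the chondroitin backbone, at 294, 256 and 276 CPM, and Ugdh, which makes its uronic acid precursor, at 122, 133 and 128 CPM. Between the EV-injected groups, 5 had an unadjusted p under 0.05 in edgeR, all lower with HDL NPs, where 10.6% of all genes had such a p and 875 of those 1325 genes were lower. They were B3gat3 (-0.89) and B4galt7 (-0.47), which build the linker to the core protein, Chpf (-1.45), a polymerising factor, Chst13 (-0.74), a sulphotransferase, and Slc35b2 (-0.41), the Golgi carrier of the sulphate donor, each with adjusted p = 0.461. Without the 3 libraries high in Rn45s, Chpf and Chst13 had the opposite sign, at 0.13 and 0.075, and B3gat3 was at -0.16. Slc35b2 measured 29.0, 25.6 and 26.4 CPM in PBS mice, 27.4, 28.1 and 28.1 CPM in EnzR EV mice and 20.4, 22.8 and 19.6 CPM in EnzR EV + HDL NP mice. On the TMM scale, as for Srgn, mice that received HDL NPs lay below all others. By library size only, EnzR EVs replicate 1 lay below them. Taken 1 pair of groups at a time, 6.21% of genes were lower without overlap against PBS and 8.58% against EnzR EVs.

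Genes on the list of serglycin-bound granule proteins lay mostly below PBS in mice given HDL NPs. Whether serglycin stores each of these proteins in these cells was not tested. Of 12 tested, 5 were higher and 7 lower in EnzR EV mice than in PBS (median log2 fold change -0.08). In EnzR EV + HDL NP mice 1 was higher and 11 lower than in PBS, where 51.1% of all genes lay lower (median -0.39, and -0.43 without the 3 libraries high in Rn45s), and against EnzR EV mice 5 were higher and 7 lower (median -0.32, and -0.14 without them). Prtn3, the serine protease proteinase 3, measured 288, 191 and 210 CPM in PBS mice, 216, 319 and 335 CPM in EnzR EV mice, and 196, 123 and 123 CPM in EnzR EV + HDL NP mice. On the TMM scale, though not by library size only, the last group lay below EnzR EV mice throughout, as for 8.58% of all genes. The log2 fold change was -0.98 ± 0.254 (edgeR unadjusted p = 0.00287, under 0.05 for 10.6% of genes, adjusted p = 0.461). It was -1.12 without the 3 libraries high in Rn45s. Mpo, myeloperoxidase, averaged 1017, 1309 and 674 CPM, and its log2 fold change between the EV-injected groups was -0.96 ± 0.321 (edgeR unadjusted p = 0.0131, adjusted p = 0.461), and -0.66 (unadjusted p = 0.115) without those libraries. Lyz2, the lysozyme of myeloid cells, was the most abundant at 9022, 6655 and 8826 CPM, and Prg2, the eosinophil major basic protein, followed at 1864, 2377 and 1565 CPM. Prtn3 and Mpo are known as genes of the promyelocyte stage, and whether Srgn tracks cell stage was not tested. The list also shares Prg2 and Cpa3 with the eosinophil, basophil and mast cell markers, Pf4 and Ppbp with the platelet markers and Gzma with the T and NK cell markers. The eosinophil, basophil and mast cell markers were 1 higher and 7 lower in EnzR EV + HDL NP mice than in PBS (median -0.23), and 0 higher and 8 lower without the libraries high in Rn45s (median -0.34), and the part of these cells in the granule list was not tested.

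Ligands, linkers and sheddases of CD44 numbered 14 tested of 15, with 6 higher and 8 lower in EnzR EV mice than in PBS (median log2 fold change -0.02). Without the 3 libraries high in Rn45s, 8 were higher and 6 lower (median 0.12). In EnzR EV + HDL NP mice 9 were higher and 5 lower than in PBS (median 0.02). Against EnzR EV mice 8 were higher and 6 lower (median 0.06). Without those libraries the last 2 medians were 0.03 and -0.03. Mmp9, a gelatinase that docks on CD44, was the most abundant at 2949, 2672 and 2933 CPM. Fn1, fibronectin, measured 1503, 1228 and 1185 CPM in PBS mice, 533, 923 and 783 CPM in EnzR EV mice and 1233, 1041 and 984 CPM in EnzR EV + HDL NP mice. All EnzR EV mice lay below all others, as for 4.52% of genes against PBS and 8.99% against EnzR EVs + HDL NPs, with a log2 fold change of -0.81 ± 0.221 against PBS (edgeR unadjusted p = 0.00417, adjusted p = 0.928). It was -0.38 without the 3 libraries high in Rn45s. Fn1 is also a monocyte marker of the list above. Esrp2, a splicing factor of epithelial cells that acts on Cd44 transcripts, was at 22.5 CPM in EnzR EVs replicate 1 and at 0.798 to 2.29 CPM in the other 8 libraries, so that its fitted differences rest on that mouse.

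The other proteoglycans and the signalling receptors are given last. Of 14 other core proteins tested of 26, 7 were higher and 7 lower in EnzR EV mice than in PBS (median log2 fold change 0.03). In EnzR EV + HDL NP mice 5 were higher and 9 lower, both than in PBS (median -0.23) and than in EnzR EV mice (median -0.35). Without the 3 libraries high in Rn45s the medians were -0.58, -0.30 and 0.37 in these 3 comparisons. Cd74, the invariant chain, which can carry a chondroitin sulphate chain, averaged 191, 210.1 and 193 CPM, and Gpc1, the glypican of many cells, 166, 179 and 135 CPM. Gpc1 was lower with HDL NPs than with EnzR EVs alone by a log2 fold change of -0.40 (edgeR unadjusted p = 0.0247, adjusted p = 0.461), and by -0.22 (unadjusted p = 0.199) without the libraries high in Rn45s. Agrn, agrin, averaged 25.2, 30.9 and 34.2 CPM, with a log2 fold change of 0.43 for EnzR EVs + HDL NPs against PBS (edgeR unadjusted p = 0.0323, adjusted p = 1.00) and of 0.36 without those libraries (unadjusted p = 0.0289). Gpc2 averaged 4.03, 8.69 and 5.42 CPM with 14.3 CPM in EnzR EVs replicate 1. Its log2 fold change for EnzR EVs against PBS was 0.96 (edgeR unadjusted p = 0.0470, adjusted p = 0.928), and -0.093 without those libraries. Of the 8 tested receptors through which versican or hyaluronan signal, or which bind their chains, 4 were higher and 4 lower in EnzR EV mice than in PBS (median -0.15). Of these 8, 5 were higher in EnzR EV + HDL NP mice than in PBS (median 0.16) and 6 were higher than in EnzR EV mice (median 0.29), with medians of 0.13, 0.098 and -0.057 in the 3 comparisons without the 3 libraries high in Rn45s. Tlr2, the pattern receptor known to respond to versican, averaged 160, 115 and 123 CPM, a log2 fold change of -0.47 for EnzR EVs against PBS (edgeR unadjusted p = 0.0484, adjusted p = 0.928) and -0.42 without those libraries. Selplg, which encodes the P-selectin ligand of leukocytes, averaged 279.5, 285 and 257 CPM.

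**Figure D4:**
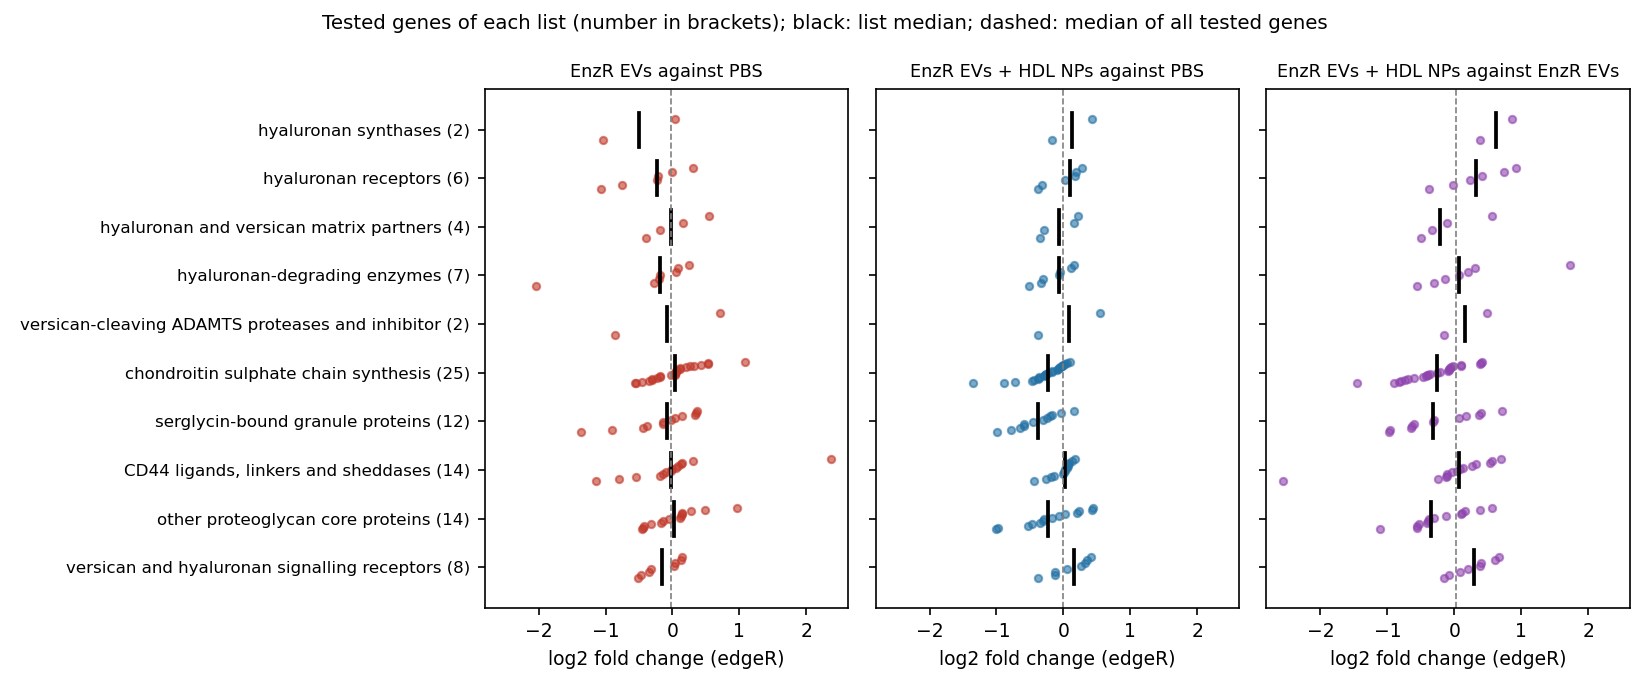
Log2 fold change (x axis, edgeR) of each tested gene of the 10 lists around Vcan, Srgn and Cd44, in 3 comparisons drawn on the same scale; black bars are list medians and the dashed line the median of all genes tested. The chondroitin sulphate synthesis genes centre at 0.04 in EnzR EVs against PBS and at -0.23 and -0.26 in the comparisons of EnzR EVs + HDL NPs, and no gene passes the adjusted threshold.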

How the data were processed

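Unnormalised read counts for each gene were deposited, in 1 table for each mouse. Per the labels and the study's methods, stranded libraries were made from 200 ng of total RNA with a kit that depletes rRNA, and sequenced as single-end 75 bp reads. Reads were trimmed with cutadapt 1.13, filtered of rRNA, aligned to mm10 with STAR and counted with HTSeq 0.6.1p1 on UCSC genes, and the authors tested them with DESeq2. The HDL NP dose is given as 1 µM in the labels and as 100 µM in the methods. Harvest was 24 h after the last injection.

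Counts of all 9 libraries were fitted together in R 4.3.3 with edgeR 4.0.16 (filterByExpr, TMM, robust quasi-likelihood test, Benjamini-Hochberg adjustment over 12553 genes, threshold 0.05). DESeq2 1.42.0 and limma 3.58.1 (voom) were alternatives. The fitted biological coefficient of variation was 0.259. Single genes were also tested by an exact two-sided permutation of log2 CPM (prior count 2). Each library is 1 mouse. Depth was 2575776 to 18110561 counts, and 3 counts amount to 0.160 to 1.65 CPM. Merged exon lengths came from GENCODE M21, and promoter windows from RefSeq (GRCm38.p6), where all 3 genes matched by symbol. The members, lists and tests were chosen with earlier results of these data known. Named list genes were the 2 most abundant of each list and those at an unadjusted p under 0.05 in any comparison, except 1 gene that is not reported here. For each member the 5 genes of highest correlation were named. Ly6g was not analysed here. Of the erythroid list, 4 hemoglobin genes were at 0 in all 9 libraries and were not tested. The steps were tested on simulated data.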

Additional observations from a re-analysis of the deposited data

How the results depend on the processing

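Vcan was higher than in PBS in all 19 alternatives tried for EnzR EVs (log2 fold change 0.77 to 2.07), all 19 for EnzR EVs + HDL NPs (1.12 to 1.56) and all 20 for both groups as one (1.04 to 1.82). It passed the threshold in 5 of these fits. Without the 3 libraries with Rn45s over 10%, both EV-injected groups against PBS gave 1.82 (adjusted p = 0.0307). A voom fit in limma that weights each library by its quality, added once the data had been seen, gave 1.24 for EnzR EVs (adjusted p = 0.0130), 1.38 for EnzR EVs + HDL NPs (0.0408) and 1.31 for both (0.00497). That weighted fit called 1990 of the 12553 genes tested for EnzR EVs and 10 for EnzR EVs + HDL NPs, where edgeR called 0. DESeq2 on only the libraries of the groups compared, also added later, gave 1.31 for EnzR EVs + HDL NPs (0.00163). That DESeq2 fit called 57 genes. Leaving out each mouse in turn, no comparison of Vcan with PBS passed. Between the EV-injected groups Vcan ranged from -0.15 to 0.53 over the mice left out. Cd44 ranged from -0.44 to 0.029 (EnzR EVs against PBS), -0.067 to 0.13 (EnzR EVs + HDL NPs against PBS), -0.010 to 0.46 (between the EV-injected groups) and -0.21 to 0.024 (both against PBS), and Srgn kept its sign in every such fit. Between the EV-injected groups Srgn was -0.010 with library size only.

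Without the 3 libraries with Rn45s over 10%, the sign turned for Srgn (0.070), Cd44 (0.089) and Gpc2 (-0.093) in EnzR EVs against PBS, for Cd44 in EnzR EVs + HDL NPs against PBS (-0.065) and in both against PBS (0.012), and between the EV-injected groups for Vcan (-0.51), Cd44 (-0.15), Chpf (0.13), Chst13 (0.075) and Esrp2 (0.48). Cd44 in EnzR EVs + HDL NPs against PBS was -0.040 with voom weights. These are the genes at an unadjusted p under 0.05 in that comparison, with Vcan, Srgn and Cd44. Of the 93 tested genes of the pathway lists, Cd44 among them, the sign turned for 31 in EnzR EVs against PBS, 17 in EnzR EVs + HDL NPs against PBS, 42 between the EV-injected groups and 23 in both against PBS, beside 36.4%, 23.1%, 36.2% and 26.1% of all genes tested in both fits. The cause was not tested. Scaling by library size only moved the median of all genes by -0.15 in EnzR EVs against PBS and by 0.21 between the EV-injected groups. Of 762 refits of list medians 29 moved by more than the spread between mice, and of 471 refits of named list genes 11 passed the threshold and 4 turned.

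The number of genes called was 0 in edgeR in each comparison. For EnzR EVs against PBS it was 8 with DESeq2, 4 with DESeq2 on those groups only, 1 without a filter on low counts, 10 without the 3 libraries high in Rn45s, 1990 with voom weights and 0 to 2 with a mouse left out. For EnzR EVs + HDL NPs against PBS it was 7 with DESeq2, 57 with DESeq2 on those groups only and 10 with voom weights. Between the EV-injected groups it was 1 with DESeq2, 1 with edgeR on those groups only, 13 with DESeq2 on those groups only, 1 without the 3 libraries and 653 with voom weights. For both against PBS it was 14 with DESeq2, 14 without the 3 libraries, 86 with voom weights and 0 to 1 with a mouse left out.

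Mice of different groups share replicate numbers, but nothing in the labels pairs them, and same-numbered mice had a mean correlation of deviations of 0.174 (9 pairs, -0.175 to 0.492), against -0.0758 for mice of different number (18 pairs). With the replicate number as a block, Vcan was 1.23 for EnzR EVs against PBS (adjusted p = 0.739), and the genes called were 1 there and 2 for both against PBS. Depth limits genes below about 1.65 CPM, the level of 3 counts in the smallest library. Vcan, Srgn and Cd44 lay above that level in every library, but Vcan in EnzR EVs replicate 1 rested on 161 counts.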
